A study of Mus musculus with 34 samples.

Results

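The neuron-linked microRNAs (miRNAs) described here are 63 of the 1525 mature miRNA names counted in small RNA libraries of mouse CAD cells. They were chosen by name, with earlier results of these data known: every arm of miR-7a, miR-7b, miR-9, miR-124, miR-125a, miR-125b, miR-128, miR-129, miR-132, miR-135a, miR-135b, miR-137, miR-138, miR-149, miR-153, miR-212, miR-218, miR-219, miR-219a, miR-326, miR-330, miR-338, miR-344, miR-346, miR-383, miR-488, miR-504, miR-598, miR-708 and miR-873. CAD cells are an established mouse line of catecholaminergic, central nervous system origin, labelled as neuroblastoma cells, that is grown with serum and takes on a neuron-like shape when serum is removed. The 34 libraries of the series form 15 groups, and 12 of them bear on these miRNAs. Small RNA was sequenced from wild-type CAD cells in 10% serum (n = 3) and from wild-type cells 4 days after serum withdrawal (n = 3). PolyA RNA-seq of wild-type cells in 10% serum (n = 3) and 4 days after withdrawal (n = 3), a separate experiment, gave the genes that carry the miRNAs. The latter 4-day libraries are wild type by title and design text, while their genotype field names the mir-138 double knockout, and they are called wild type here. The labels do not say whether replicates came from separate cultures, so p-values measure only the spread between these libraries.

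A miRNA gene is transcribed as a long precursor that is cut to a hairpin and then to a short duplex. Either strand of the duplex, the 5p or the 3p arm, can be loaded into an Argonaute protein, and bases 2 to 8 of the loaded arm, the seed, do most of the pairing with target mRNAs. Several hairpins can give an identical mature arm on one side and distinguishable arms on the other, so reads of the second arm point to their gene copy. The level of that arm need not follow the use of the copy, as the arms of a hairpin can change apart. miR-124, miR-9, miR-128, miR-137, miR-138 and the pair miR-132 and miR-212 are among the best-known miRNAs of neurons, miR-7 is abundant in neuroendocrine cells, and miR-219 and miR-338 are best known from oligodendrocytes.

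RefSeq (build GRCm38.p6) held a mature sequence for 53 of the 63 names. The following are shown because they carry the main findings: the arms of miR-137 and miR-138, the seed-sharing pairs, and the copy-specific arms that moved in opposite directions. Each reads 5′ to 3′ with the seed in capitals.
miR-137-3p: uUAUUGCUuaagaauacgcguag
miR-137-5p: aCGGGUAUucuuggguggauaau
miR-138-5p: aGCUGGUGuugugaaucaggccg
miR-138-1-3p: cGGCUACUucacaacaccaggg
miR-138-2-3p: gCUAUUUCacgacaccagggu
miR-7a-5p: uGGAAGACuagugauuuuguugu
miR-7b-5p: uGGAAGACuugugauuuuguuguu
miR-125a-5p: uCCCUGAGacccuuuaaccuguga
miR-125b-5p: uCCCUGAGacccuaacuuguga
miR-132-3p: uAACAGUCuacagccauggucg
miR-212-3p: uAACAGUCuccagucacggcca
miR-218-5p: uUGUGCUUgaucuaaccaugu
miR-218-1-3p: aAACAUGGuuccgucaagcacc
miR-218-2-3p: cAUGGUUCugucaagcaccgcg
miR-219a-1-3p: aGAGUUGCgucuggacgucccg
miR-708-5p: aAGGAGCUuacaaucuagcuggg
miR-708-3p: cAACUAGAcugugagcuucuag
miR-149-5p: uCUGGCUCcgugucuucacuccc
miR-149-3p: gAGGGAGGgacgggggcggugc
miR-7a-5p and miR-7b-5p share the seed GGAAGAC and differ by A10U (position from the 5′ end, miR-7a base first) and by 1 more base at the 3′ end of miR-7b. miR-125a-5p and miR-125b-5p share CCCUGAG, and miR-132-3p and miR-212-3p share AACAGUC. The 2 miR-218 hairpins give the same 5p arm, with seed UGUGCUU. Their 3p arms are nearly the same sequence begun at different bases, so their seeds differ.

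The small RNA libraries held 1423978 to 2763553 reads assigned to miRNAs, and values below are CPM, these reads scaled to a common library size with TMM. Serum replicate 2 stood apart: its log2 CPM correlated with the other serum libraries at 0.895 and 0.953 across miRNAs, against 0.975 to 0.995 for the other pairs within a group. Reads left unassigned were 46.1 to 49.2% in serum and 34.1 to 40.0% at 4 days. Over the 23 names of miRNAs that mark muscle, blood, liver, mesenchyme and endothelium, the summed level was 16516 to 22243 CPM in serum and 39712 to 40957 CPM at 4 days, most of it miR-143-3p. None of the 23 was at 0 in every library. Of 15 tested, 9 were higher and 2 lower at 4 days, against 19.6% and 16.2% of all miRNAs tested. The blood names alone summed to 110.85 to 141.5 CPM in serum and 73.3 to 111.5 CPM at 4 days. The part of these 23 names in the results was not tested. In the polyA libraries the neuronal gene Tubb3 was present, at 517 CPM on average in serum, whereas the catecholamine genes Th and Slc18a2 were at or below 1.71 CPM in every library. Dbh, another catecholamine gene, averaged 54.8 CPM in serum and 5.69 CPM at 4 days. The fibroblast genes Col1a1 (0.684 to 4.82 CPM on average), Col1a2 (0.0583 to 1.79) and Pdgfra (0 to 0.856) were low and higher at 4 days. Dcn and Lum were too low to test.

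The 63 miRNAs together held about the same part of the pool in both conditions, while individual arms moved both ways. They took 12.6 ± 0.249% (SD, n = 3) of miRNA reads in serum and 12.3 ± 0.560% (n = 3) at 4 days, a difference within the spread between libraries (exact permutation test, two-sided, p = 0.5; the smallest p possible with 3 against 3 is 0.1). miR-7a-5p, miR-218-5p, miR-7b-5p and miR-138-5p alone made up 63.7 to 74.5% of the members' reads. At the other end, 10 names were too low to test, with at most 31 reads in any library: both arms of miR-346, miR-135a-5p, miR-135a-1-3p, miR-135a-2-3p, miR-135b-5p, miR-129-2-3p, miR-153-5p, miR-219a-5p and miR-504-3p. miR-219 and miR-873 had no entry.

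Of the 53 arms tested, 18 were higher at 4 days, 8 were lower and 27 did not pass the threshold (edgeR quasi-likelihood test, Benjamini-Hochberg over all 715 miRNAs tested, adjusted p under 0.05). Among all 715 miRNAs 35.8% passed, 19.6% higher and 16.2% lower, so the share of members that were lower (15.1%) lay near the background and the share higher (34.0%) above it. The members' median log2 fold change was 0.37, against -0.11 for all miRNAs. The groups did not overlap for 34 of the 53 arms, 25 with all 4-day libraries above and 9 with all below, namely the 26 that passed and 8 that did not. Among all 715 miRNAs 51.9% did not overlap, 27.8% above and 24.1% below. An arm that did not pass is not thereby shown to be unchanged. Scaling by library totals alone gave 13 members higher and 12 lower, with 88 of all miRNAs higher and 193 lower in place of 140 and 116, and moved the median of all miRNAs to -0.38. Leaving out 1 library gave 12 to 24 members higher and 4 to 11 lower. Of all 746 to 766 miRNAs tested in these settings, 87 to 201 were higher and 66 to 198 lower. The highest counts, of members and of all miRNAs, came without serum replicate 2. The call of miR-326-5p was lost when any library was left out, and those of miR-125b-1-3p and miR-132-5p when any library other than serum replicate 2 was left out. The call of miR-338-3p was lost when serum replicate 1 or any 4-day library was left out, that of miR-7a-1-3p without serum replicate 1 or 3 or 4-day replicate 2 or 3, those of miR-330-5p and miR-338-5p without 4-day replicate 3, and that of miR-7a-2-3p without 4-day replicate 2. In bulk RNA, more cells of a kind and more RNA per cell cannot be told apart.

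**Figure D1:**
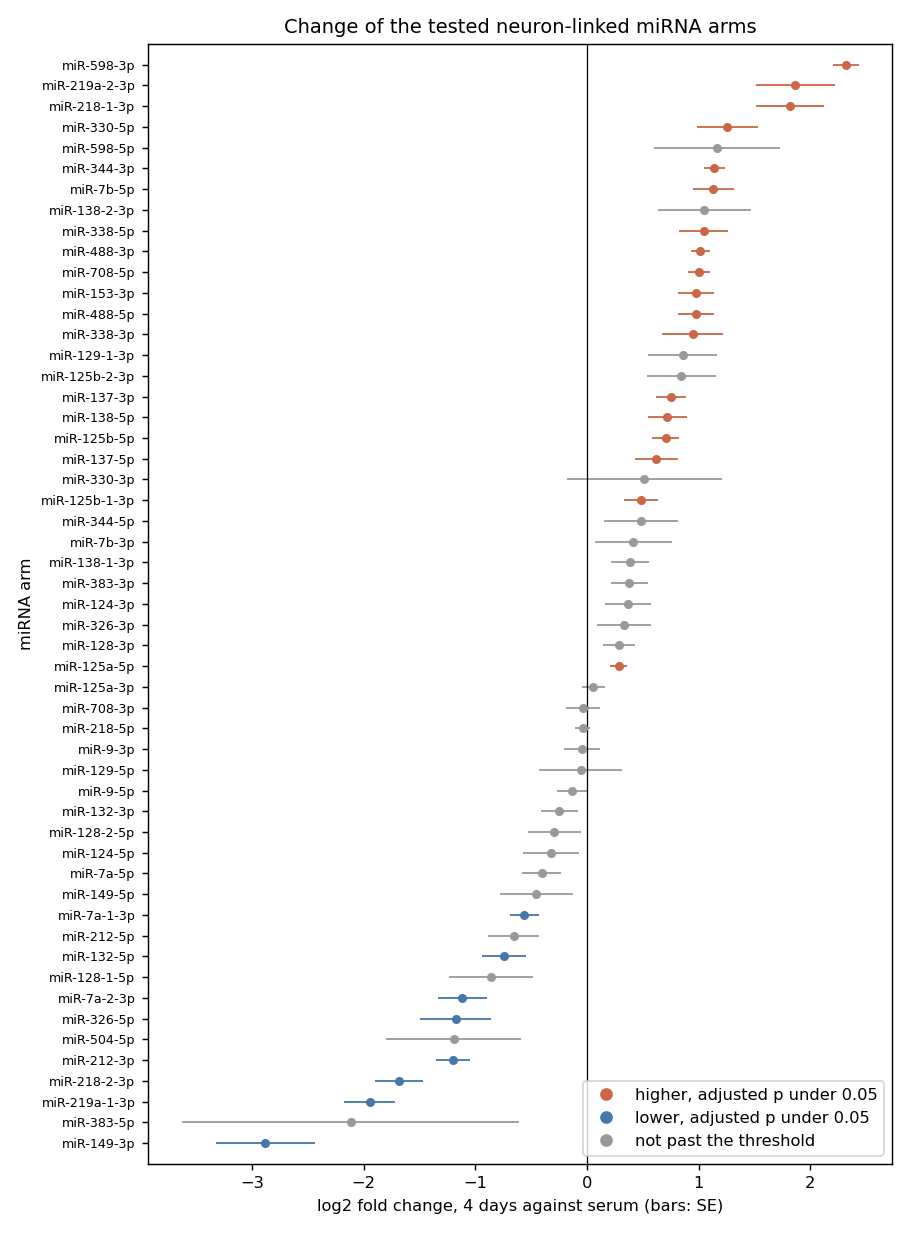
Log2 fold change (4 days against serum, x axis) with its standard error for the 53 tested arms (y axis), coloured by the edgeR call. The 18 arms that were higher run from 0.28 (miR-125a-5p) to 2.32 (miR-598-3p), and the 8 that were lower from -0.56 (miR-7a-1-3p) to -2.88 (miR-149-3p).

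miR-137 and miR-138 both rose through their abundant arm. miR-137, made from 1 hairpin (GRCm38.p6 chr3:118433857-118433929, plus strand), is a neuronal miRNA whose human locus is linked to schizophrenia risk. miR-137-3p measured 5365, 4139 and 5779 CPM in serum and 8892, 8323 and 8481 CPM at 4 days. All 3 libraries at 4 days were above all 3 in serum (log2 fold change 0.75, SE 0.13, adjusted p = 0.00560), and the arm moved from rank 49 to rank 36 by mean level among all miRNAs. The minor arm, miR-137-5p, measured 138.4, 194 and 171 CPM in serum and 224, 230.4 and 319 CPM at 4 days. Its groups did not overlap either (log2 fold change 0.62, SE 0.19, adjusted p = 0.0454), though the call was lost when any library other than serum replicate 2 was left out, with adjusted p up to 0.176 over the edgeR and DESeq2 settings, and the 5p share of the hairpin's reads was 3.29 ± 1.05% in serum and 2.93 ± 0.614% at 4 days.

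miR-138 is known to limit the size of dendritic spines and comes from 2 hairpins, Mir138-1 (chr9:122682876-122682974, plus strand) and Mir138-2 (chr8:94324311-94324381, plus strand). miR-138-5p, identical from both, measured 7912, 4932 and 7402 CPM in serum and 11371, 11218 and 10770.4 CPM at 4 days. The lowest 4-day library exceeded the highest serum library (log2 fold change 0.72, SE 0.18, adjusted p = 0.0206), and the rank went from 38 to 27. The call was lost when any 1 of the 4-day libraries was left out and under scaling by library totals, with the direction kept and an adjusted p of at most 0.107 in edgeR or DESeq2. The copy-specific arm miR-138-1-3p measured 496, 336 and 490.4 CPM in serum and 606, 551 and 571 CPM at 4 days, did not overlap between groups and did not pass (log2 fold change 0.39, SE 0.17, adjusted p = 0.117). miR-138-2-3p measured 20.9, 8.60 and 23.5 CPM in serum and 33.8, 34.2 and 42.5 CPM at 4 days, with groups that did not overlap and no call (log2 fold change 1.05, SE 0.42, adjusted p = 0.0921). Without serum replicate 2 it was called higher (edgeR, 0.70, adjusted p = 0.0193). Copy 1 gave 96.3 ± 1.09% of the 3p reads in serum and 94.0 ± 0.836% at 4 days, so nearly all copy-specific reads came from Mir138-1 in both conditions.

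**Figure D2:**
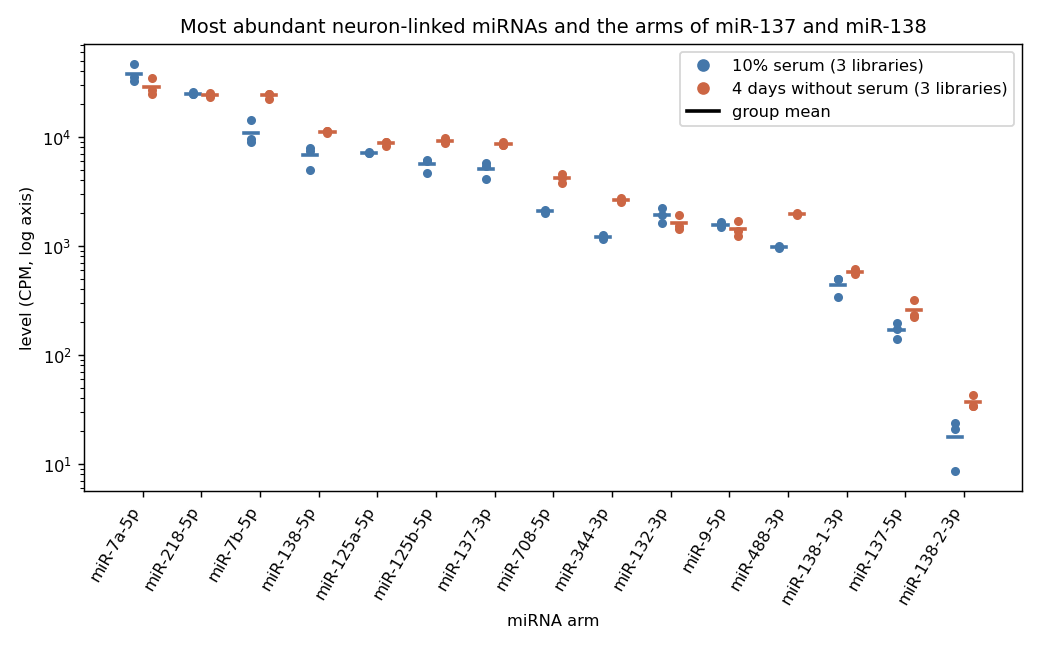
CPM (log axis) in each small RNA library for the 12 most abundant members and the remaining arms of miR-137 and miR-138 (x axis), with 3 points per group and a bar at the group mean. miR-138-5p and miR-137-3p lie higher in all 3 libraries at 4 days, and miR-218-5p overlaps between the groups.

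The miR-7 family was the most abundant, and its composition shifted. miR-7, which is bound by the circular RNA Cdr1as in brain, is made as miR-7a by Mir7-1 and Mir7-2 and as miR-7b by Mir7b. miR-7a-5p measured 32231, 46194 and 35506 CPM in serum and 34527, 24718 and 26681 CPM at 4 days. The groups overlapped, and the difference did not pass (log2 fold change -0.41, SE 0.18, adjusted p = 0.116), though it did under scaling by library totals (-0.68, adjusted p = 0.0155). miR-7b-5p measured 8904, 14248 and 9609 CPM in serum and 24818, 22374 and 24566 CPM at 4 days. Every 4-day library was above every serum library (log2 fold change 1.13, SE 0.18, adjusted p = 0.00427). As a share of miR-7a-5p and miR-7b-5p together, miR-7b-5p made up 21.6, 23.6 and 21.3% in serum and 41.8, 47.5 and 47.9% at 4 days. These shares did not overlap (exact permutation test, two-sided, p = 0.1, the smallest possible, and 0.1 after adjustment over the 3 pairs compared in this way). Summed over the seed GGAAGAC, with libraries scaled afresh on seed families, the level was 47481 ± 10585 CPM in serum and 54275 ± 6995 CPM at 4 days and did not pass (log2 fold change 0.19, adjusted p = 0.408). Both 3p arms of miR-7a fell. miR-7a-2-3p measured 614, 378 and 592 CPM in serum and 274, 199.6 and 257 CPM at 4 days, without overlap (log2 fold change -1.12, SE 0.22, adjusted p = 0.00825), and miR-7a-1-3p went from 168 ± 15.2 to 114 ± 7.62 CPM (log2 fold change -0.56, SE 0.13, adjusted p = 0.0156). miR-7b-3p, at 8.05 ± 2.97 to 10.8 ± 1.17 CPM, did not pass (0.42, adjusted p = 0.368).

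miR-132 and miR-212, 203 bases apart on chromosome 11 and known to be induced by neuronal activity through CREB, share a seed. miR-132-3p measured 2242, 1626 and 1934 CPM in serum and 1934, 1519 and 1431 CPM at 4 days, overlapped between groups and did not pass (log2 fold change -0.25, SE 0.17, adjusted p = 0.285). Without serum replicate 2 it was called lower (edgeR, -0.38, adjusted p = 0.0377). miR-212-3p measured 692, 509 and 642 CPM in serum and 293, 268 and 239.8 CPM at 4 days. It was lower in every 4-day library (log2 fold change -1.20, SE 0.15, adjusted p = 0.00147). The miR-212-3p share of the pair was 24.1 ± 0.698% in serum and 14.2 ± 0.920% at 4 days, without overlap (exact permutation test, p = 0.1). miR-132-5p also fell (log2 fold change -0.74, SE 0.20, adjusted p = 0.0267), and miR-212-5p did not pass (-0.66, adjusted p = 0.0658).

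miR-125a-5p and miR-125b-5p, relatives of the founding lin-4 miRNA, both rose. miR-125b-5p measured 5979, 4688 and 6132 CPM in serum and 8728, 9759.9 and 8885 CPM at 4 days. The groups did not overlap (log2 fold change 0.70, SE 0.12, adjusted p = 0.00544). miR-125a-5p measured 7135, 7201 and 7155 CPM in serum and 8973, 8903 and 8280.4 CPM at 4 days. The groups did not overlap and this smaller change passed (log2 fold change 0.28, SE 0.07, adjusted p = 0.0269), but the call was lost under scaling by library totals and without serum replicate 1 or 3 or 4-day replicate 1 or 2. miR-125b-5p went from 43.7 ± 3.73% to 51.1 ± 1.59% of the pair (exact permutation test, p = 0.1). The seed CCCUGAG, 88.1% of it from these members and the rest from miR-351-5p, rose by 0.53 on the log2 scale (adjusted p = 0.00267). Of 47 seeds with a member, 39 were tested: 16 were higher and 7 lower, against 22.1% and 14.2% of all 620 seed families tested (36.3% in either direction). Scaling by library totals turned this to 8 higher and 11 lower, with 73 of all families higher and 177 lower. Besides the pairs above, 3 seeds joined a pair of members: CUCUGGG (miR-326-3p and miR-330-5p) rose by 0.64 (adjusted p = 0.0196), AACAAGU (miR-7a-2-3p and miR-7b-3p) fell by 0.98 (adjusted p = 0.0119), and GGGGCCG (miR-128-1-5p and miR-128-2-5p) did not pass (-0.25, adjusted p = 0.419).

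Among arms of at least 50 CPM on average, miR-598-3p had the largest rise, and several miRNAs from single hairpins rose by about 1 on the log2 scale. miR-598-3p measured 167, 146 and 164 CPM in serum and 782, 745 and 856 CPM at 4 days. The 4-day libraries lay together far above serum (log2 fold change 2.32, SE 0.12, adjusted p = 5.65e-05). miR-708-5p, from an intron of the teneurin gene Tenm4, measured 2001, 2113 and 2092 CPM in serum and 3745, 4156 and 4533 CPM at 4 days (log2 fold change 1.00, SE 0.10, adjusted p = 6.59e-04). miR-488-3p, from an intron of the astrotactin gene Astn1, measured 996, 948 and 975 CPM in serum and 2016, 1960.5 and 1924 CPM at 4 days (log2 fold change 1.02, SE 0.09, adjusted p = 3.44e-04), and miR-488-5p rose with it (0.97, adjusted p = 0.00441). For all 3 of these miRNAs the lowest 4-day value was above the highest serum value.

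miR-344-3p measured 1143, 1194 and 1261 CPM in serum and 2538, 2649 and 2746 CPM at 4 days and rose without overlap (log2 fold change 1.14, SE 0.09, adjusted p = 2.92e-04). Its hairpins sit among 13 miR-344 hairpins on chromosome 7 (GRCm38.p6 chr7:61683124-62085310). Of 21 names of the miR-344 and miR-219 families that the naming rule did not cover, 12 were tested, 3 were higher and 1 was lower. miR-344d-3p, the most abundant of them, went from 1173 ± 187 to 1806 ± 300.3 CPM (log2 fold change 0.62, adjusted p = 0.0294), and miR-344b-3p did not pass (-0.11, adjusted p = 0.494).

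miR-330-5p measured 49.0, 74.1 and 37.7 CPM in serum and 108, 136 and 141 CPM at 4 days and rose (log2 fold change 1.26, SE 0.27, adjusted p = 0.0124). miR-153-3p, which like miR-7 can repress alpha-synuclein, went from 136 ± 25.3 to 267 ± 21.7 CPM (log2 fold change 0.98, SE 0.16, adjusted p = 0.00461). Both arms of miR-338 rose, miR-338-3p by 0.95 (adjusted p = 0.0353) and miR-338-5p by 1.04 (adjusted p = 0.0105) on the log2 scale. miR-125b-1-3p passed narrowly (0.49, adjusted p = 0.0480). The lowest arms among the calls were miR-326-5p, which fell from 6.38 ± 0.597 to 2.76 ± 0.726 CPM (-1.18, adjusted p = 0.0296), and miR-219a-2-3p.

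Several of the best-known neuronal miRNAs did not pass. miR-9-5p, a regulator of neural progenitors, measured 1480.4, 1653 and 1554 CPM in serum and 1691, 1231 and 1352 CPM at 4 days (log2 fold change -0.13, SE 0.14, adjusted p = 0.466), and miR-9-3p had a log2 fold change of -0.04. Under scaling by library totals miR-9-5p was called lower (-0.41, adjusted p = 0.0489). miR-124-3p, the most abundant miRNA of adult brain, was low here at 241, 139 and 226 CPM in serum and 265, 263 and 255 CPM at 4 days (log2 fold change 0.37, SE 0.21, adjusted p = 0.206). miR-128-3p measured 1341, 993 and 1354 CPM in serum and 1569.8, 1481 and 1442 CPM at 4 days (log2 fold change 0.28, SE 0.14, adjusted p = 0.166). The groups overlapped for miR-9-5p. For miR-124-3p and miR-128-3p all 4-day values were above all serum values, and serum replicate 2 was the lowest library. miR-383-5p (171 reads in serum replicate 2, 20 and 0 in the others) and miR-504-5p (93 against 32 and 26) had wide errors from that library.

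In miR-218 the main arm did not pass the test, and the copy-specific arms moved in opposite directions. It is a miRNA of motor neurons, made from Mir218-1 in Slit2 (GRCm38.p6 chr5:48223942-48224051, plus strand) and Mir218-2 in Slit3 (chr11:35616816-35616925, plus strand), genes for secreted axon guidance ligands. miR-218-5p, shared by both hairpins, measured 24588, 24517 and 25653 CPM in serum and 25035, 24357 and 23386 CPM at 4 days. The groups overlapped (log2 fold change -0.04, SE 0.07, adjusted p = 0.653), and only scaling by library totals, of the settings run, called it lower (-0.31, adjusted p = 0.00972). miR-218-1-3p measured 59.3, 30.4 and 45.9 CPM in serum and 113, 185 and 181 CPM at 4 days, with no overlap (log2 fold change 1.82, SE 0.30, adjusted p = 0.00460). miR-218-2-3p measured 282, 168 and 239.6 CPM in serum and 77.0, 74.6 and 63.4 CPM at 4 days, again with no overlap and in the other direction (log2 fold change -1.68, SE 0.21, adjusted p = 0.00147). The copy 1 arm made up 17.3, 15.3 and 16.1% of copy-specific 3p reads in serum and 59.6, 71.3 and 74.1% at 4 days. The 5p arm held 98.9 ± 0.284% of miR-218 reads in serum and 99.1 ± 0.168% at 4 days, so the copy-specific arms are a small part of its reads.

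The host mRNAs, measured in other libraries, moved in the same directions. Slit2 measured 159, 174 and 167 CPM in serum and 233, 295 and 287 CPM at 4 days (log2 fold change 0.70, SE 0.09, adjusted p = 1.00e-05). Slit3 measured 212.4, 212.1 and 225 CPM in serum and 64.2, 105 and 123.8 CPM at 4 days (log2 fold change -1.15, SE 0.17, adjusted p = 3.29e-05). Neither gene's groups overlapped.

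**Figure D3:**
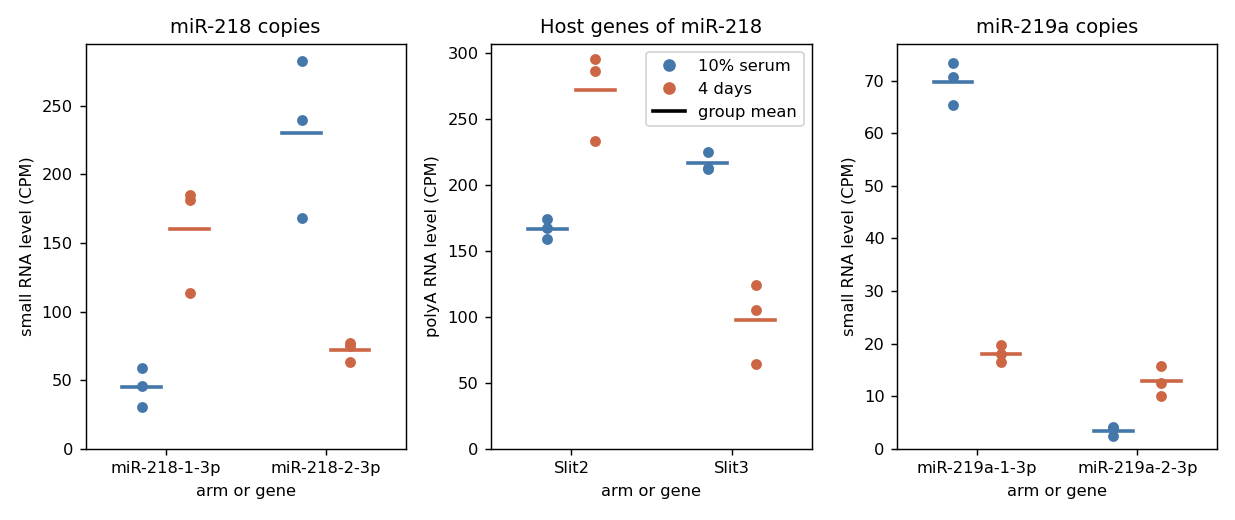
CPM in each library (points, 3 per group, bar at the mean, axes from 0) for the copy-specific 3p arms of miR-218, their host genes Slit2 and Slit3 in polyA RNA, and the copy-specific 3p arms of miR-219a. miR-218-1-3p and Slit2 lie higher at 4 days and miR-218-2-3p and Slit3 lower, without overlap.

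miR-219a, from Mir219a-1 on chromosome 17 and Mir219a-2 on chromosome 2, showed a like exchange at low level. miR-219a-1-3p measured 65.4, 73.4 and 70.6 CPM in serum and 17.9, 19.7 and 16.5 CPM at 4 days (log2 fold change -1.95, SE 0.23, adjusted p = 0.00111). miR-219a-2-3p measured 4.09, 3.97 and 2.35 CPM in serum and 10.0, 15.8 and 12.6 CPM at 4 days (log2 fold change 1.87, SE 0.35, adjusted p = 0.00700). The copy 1 share of 3p reads went from 95.3 ± 1.37% to 58.8 ± 4.65%. Mir219a-1 is overlapped on the opposite strand by Mir219c, and Mir219a-2 by Mir219b, and their arms are counted under their own names. miR-219b-5p, opposite the copy whose 3p arm rose, fell from 72.7 ± 22.0 to 30.6 ± 9.23 CPM (log2 fold change -1.25, adjusted p = 0.0330). Opposite the copy whose 3p arm fell, miR-219c-3p (-0.48, adjusted p = 0.167) and miR-219c-5p (0.02, adjusted p = 0.976) did not pass. The copy comparisons were chosen after the values were seen. Such exchanges were not particular to these miRNAs: copy 1 of miR-181a-3p, which is no member, went from 76.1 ± 3.21% to 27.5 ± 1.92%.

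Most hairpins showed no arm shift that passed the test. Of 27 hairpin names with reads from both arms, 22 could be tested, 11 dominated by the 5p and 11 by the 3p arm. The ratio of 5p to 3p reads changed in 6, 3 toward 5p and 3 toward 3p (limma, adjusted p under 0.05), against 30.9% of all 236 hairpin names tested, 17.4% toward 5p and 13.6% toward 3p. The members' share is thus close to the background. miR-708 went from 68.8 ± 4.49% to 81.7 ± 1.92% 5p reads (log2 ratio change 1.01, SE 0.18); miR-708-3p, at 942 ± 174 to 921 ± 31.6 CPM, did not pass (log2 fold change -0.03, SE 0.15, adjusted p = 0.869).

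miR-149 went from 83.0 ± 10.0% to 96.9 ± 1.57% 5p reads (2.63, SE 0.58). miR-149-3p measured 44.4, 60.2 and 43.0 CPM in serum and 3.17, 7.46 and 9.06 CPM at 4 days and fell (log2 fold change -2.88, SE 0.44, adjusted p = 0.00363), whereas miR-149-5p did not pass (-0.46, adjusted p = 0.312). miR-212 moved toward 5p (21.7 to 29.0%), and miR-124 (33.6 to 23.8%), miR-132 (18.0 to 13.6%) and miR-326 (2.66 to 0.892%) moved toward 3p. These 4 lost their call when serum replicate 3, 4-day replicate 2 or 4-day replicate 3 was left out, and all but miR-124 also without serum replicate 1 or 4-day replicate 1. With edgeR's diffSpliceDGE in place of limma, miR-124, miR-132 and miR-212 did not pass (adjusted p = 0.0922, 0.0795 and 0.122). Without serum replicate 2 the count was 10, where 141 of all 252 hairpin names passed. It was 3 without serum replicate 1 (53 of 249) or 4-day replicate 1 (44 of 250), and 2 without serum replicate 3 (53 of 247), 4-day replicate 2 (38 of 250) or 4-day replicate 3 (39 of 251).

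**Figure D4:**
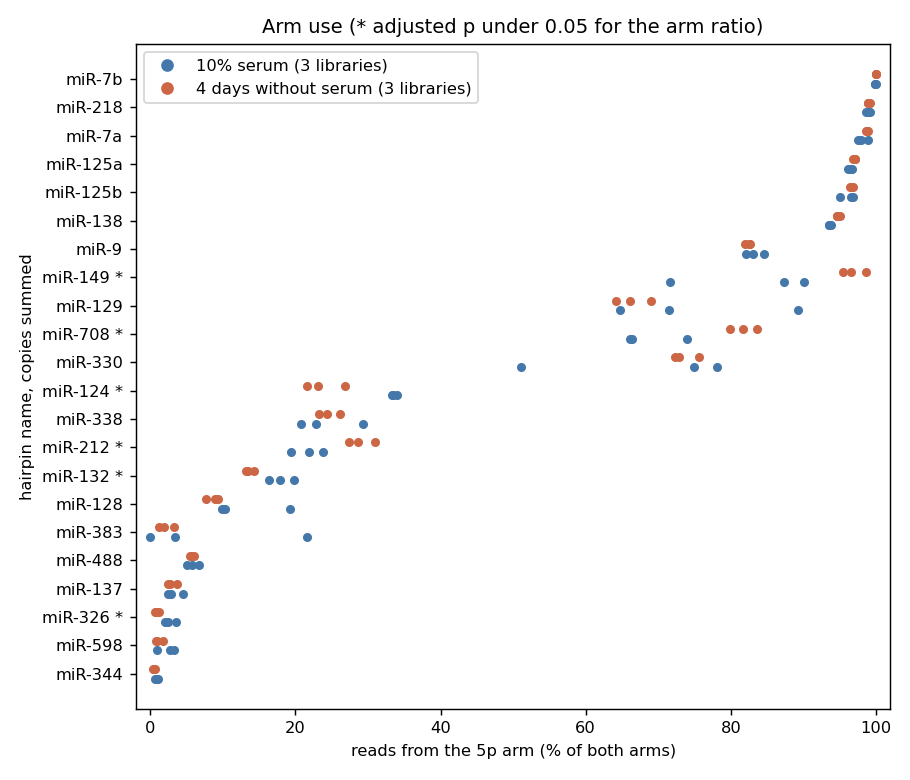
Reads from the 5p arm as a percent of both arms (x axis) in each library, 3 points per group, for the 22 hairpin names tested (y axis), with an asterisk where the limma test of the arm ratio passed. miR-708 and miR-149 lie further toward 5p at 4 days, and miR-137 and miR-138 keep the same dominant arm in both groups.

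Genes that carry these hairpins were read in the polyA libraries. Of 22 host genes considered, 15 were tested: 8 were higher and 4 lower at 4 days, where 70.9% of all 13283 genes passed, 36.2% higher and 34.7% lower. A count of 12 among 15 is therefore near the background. The hosts that rose included Eml2 of miR-330 (5.51 ± 1.20 to 55.1 ± 8.82 CPM; log2 fold change 3.33, SE 0.18, adjusted p = 1.47e-09), Ptprn2 of miR-153 (10.9 ± 2.09 to 75.8 ± 16.3 CPM; 2.80) and Astn1 of miR-488 (63.8 ± 4.21 to 274 ± 8.19 CPM; 2.10). Aatk of miR-338 (2.03), Tenm4 of miR-708 (1.80), Arrb1 of miR-326 (0.73) and Xkr6 of miR-598 (2.16, and 3.30 when both strands were counted) rose as well. Those that fell besides Slit3 were Hnrnpk of Mir7-1 (889.9 ± 1.10 to 495 ± 14.7 CPM; -0.85), R3hdm1 of Mir128-1 (-0.47) and Gpc1 of miR-149 (-0.46). Grid1, Sgcz and Lemd1, hosts of miR-346, miR-383 and miR-135b, had 0 reads in every library. The placement of miR-383 in Sgcz rests on textbook knowledge, and the strand of Grid1 relative to its hairpin was not checked.

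Each tested host was set beside the copy-specific arm of its hairpin or, for a single hairpin, its more abundant arm. The log2 fold changes had the same sign in 14 of 15 such pairs. Both passed in 9 pairs, 7 higher and 2 lower, and in none of these did they go opposite ways. Such pairs were not counted for other miRNAs and their hosts, so these counts have no background beside them. Over all features, 70.9% of genes and 35.8% of miRNAs passed. The exception in sign was Arpp21 with miR-128-2-5p, where neither passed. This pairing of arms was chosen after the values were seen, and the placement of miR-598 in Xkr6 rests on textbook knowledge, as RefSeq's table gave no hairpin for it. For Arrb1 and Gpc1 the strand relative to the hairpin was not checked. The less abundant arms of these single hairpins were not paired. Of those that passed, miR-326-5p fell (edgeR, log2 fold change -1.18, adjusted p = 0.0296) while its host Arrb1 rose (0.73). miR-338-5p and miR-488-5p rose and miR-149-3p fell, each in the direction of its host.

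**Figure D5:**
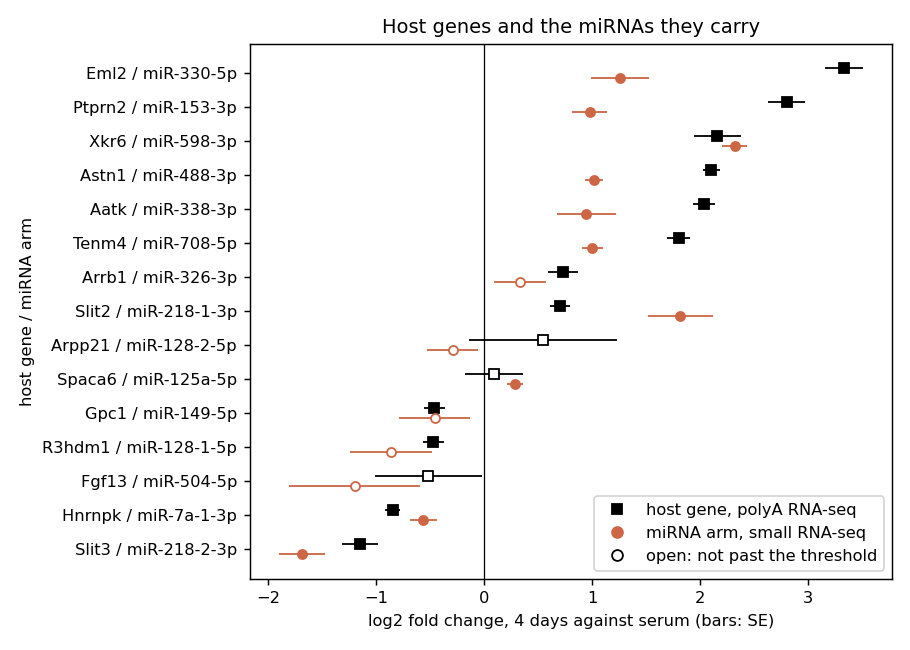
Log2 fold change (4 days against serum, x axis, with SE) of 15 host genes in polyA RNA-seq (squares) and of the miRNA arm each carries in small RNA-seq (circles), with open symbols where the edgeR test was not passed. The signs match in 14 pairs, with arms chosen after the values were seen and no count over other pairs beside them.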

How the data were processed

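Small RNA libraries were deposited as raw counts per mature miRNA. The submitters' processing notes name cutadapt, BWA, STAR, DESeq, DESeq2 and mm9, without versions. How BWA reads matching several miRNAs were assigned is not given in the sources used here. Near-identical names (miR-7a-5p and miR-7b-5p, the 3p arms of miR-218, or copies of miR-344) may therefore share reads. PolyA libraries were deposited by the authors as STAR gene counts (19900317 to 28631969 reads on the strand used; the other strand held 3.21 to 3.81%). Unassigned small RNA reads were left out of totals.

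Members and lists were chosen with earlier results of these data known. Any member could be named; values per library were given for miR-137 and miR-138 arms, the 12 most abundant members, and the 8 largest changes among those passing with a mean of at least 50 CPM. Others were named for copy, arm or host comparisons after their values were seen. Counts were tested with edgeR 4.0.16 (filterByExpr, minimum count 10, minimum total count 15; TMM; two-sided quasi-likelihood test) in R 4.3.3, with Benjamini-Hochberg adjustment over everything tested. The standard error (SE) printed or drawn for an edgeR log2 fold change is its absolute value divided by the square root of the test's F statistic. Arm ratios, log2 of 5p over 3p reads with 0.5 added to each, were tested with limma 3.58.1. Seed families summed reads over bases 2 to 8 of RefSeq sequences, which were at hand for 1287 of the 1525 names. A name without a sequence was kept as a family of its own. The families tested thus include such single names, and a sum can miss arms that share its seed. The edgeR and limma fits were tested on simulated data. DESeq2 1.42.0, other scalings, no low-count filter, a replicate block and leaving out each library were tried as alternatives. The 22 other polyA libraries were not used here.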

Additional observations from a re-analysis of the deposited data

How the results depend on the processing

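Of the 26 members that passed, all kept their direction in the 12 planned settings and 15 also kept their call, among them miR-137-3p, miR-7b-5p, miR-598-3p, miR-218-1-3p and miR-218-2-3p. Calls of host genes were 8 higher and 4 lower in every setting run. With library totals alone, 8 seed families with a member were higher and 11 lower (73 and 177 of all 620). Leaving out 1 library gave 4 to 11 members lower, against 66 to 198 of all miRNAs. The members' count was 5 without serum replicate 1 or 3 or 4-day replicate 3, and 4 without 4-day replicate 2. With 1 library left out, 10 to 21 seed families with a member were higher and 3 to 9 lower. Over all 648 to 664 families tested, 75 to 183 were higher and 55 to 164 lower. Shifted member hairpins numbered 2 to 10, against 38 to 141 of all hairpin names tested. miR-218-5p, not called, ranged from -0.079 to 0.041 when 1 library was left out, with the sign changed without serum replicate 3 (0.018) or 4-day replicate 3 (0.041). Scaling by the summed reads of 2 names that are not mouse miRNAs was added after seeing the data. It gave 26 members higher and 2 lower, with 243 of all 715 miRNAs higher, 19 lower and a median of 0.62. The calls of miR-218-2-3p (-1.001, adjusted p = 0.0802), miR-212-3p (-0.50, 0.308), miR-7a-2-3p (-0.43, 0.445), miR-326-5p (-0.49, 0.413) and miR-132-5p (-0.047, 0.942) were lost under it, and it reversed miR-132-3p (0.47), miR-218-5p (0.69), miR-7a-1-3p (0.16), miR-7a-5p (0.40) and miR-9-5p (0.63). The cause was not tested.

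Replicate numbers did not pair the libraries: deviations of same-numbered small RNA libraries correlated at 0.0873, 0.0513 and -0.419, and those of polyA libraries at -0.0264, 0.0232 and 0.0251. With the replicate block, 14 members were higher and 7 lower (112 and 84 of all 715 miRNAs), 2 hairpins shifted (51 of all 236; miR-124, miR-132, miR-212 and miR-326 lost their call, with adjusted p from 0.0561 to 0.0793), and 13 seed families were higher and 5 lower (112 and 65 of all 620). Arms under about 50 reads per library, such as miR-219a-2-3p and miR-326-5p, are limited by depth.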

Other observations

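The small RNA tables also list 2 names from other species, dme-miR-14-5p and xtr-miR-427. What they are is not given in the sources used here. Their levels were 1205 ± 416 and 2383 ± 625 CPM in serum and 669.7 ± 131.95 and 1420.0 ± 172 CPM at 4 days (n = 3 each), with log2 fold changes of -0.85 and -0.75 (edgeR, adjusted p = 0.0467 and 0.0290).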
